A study of Mus musculus with 8 samples.

Results

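The surface genes Kit, Cd34, Flt3, Slamf1, Cd48, Procr, Tek, Esam and Cd27, by whose proteins haematopoietic stem and progenitor cells are sorted, were measured in Sca1+Lin- cells of mouse bone marrow (cells that carry the surface marker Sca1 and lack lineage markers). They were chosen by gene symbol in the platform annotation, which gave 9 genes of 18193 and 12 probe sets of 45037. Kit has 2 probe sets, Slamf1 has 3 and each other member has 1. The samples came from mice that carry the Sca1-MALT1 transgene (n = 5) and from wild-type mice (WT, n = 3). The transgene is named for the promoter of Sca1, which is active in stem and progenitor cells, and for MALT1, a protease and scaffold that links antigen receptors to NF-kB. The labels give no age, strain or sex for either genotype, and do not state whether each sample is a separate animal. The p-values thus rest on the spread among these arrays, part of which, and in WT perhaps all, may be technical. The Xist signals given below differ so much among the Sca1-MALT1 arrays that these did not all come from the same material. Each sample was hybridised to a 1-colour Affymetrix array, and every value is a log2 signal made by the authors with RMA, a method that corrects the background, equalises the arrays and summarises the probes of a set.

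Stem and progenitor cells are told apart by combinations of these proteins. In mice, KIT marks stem and multipotent progenitor cells among Sca1+Lin- cells, SLAMF1 (CD150) without CD48 marks long-term stem cells, and FLT3, CD34 and CD27 mark multipotent and lymphoid-primed progenitors. PROCR (EPCR), TEK (TIE2) and ESAM are stem cell markers that endothelial cells also carry, while CD48, CD27 and SLAMF1 are found on mature lymphocytes too.

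Genes known from mature blood cells also gave signal in this fraction. The B cell gene Ms4a1 read 10.20 to 12.54 in Sca1-MALT1 and 12.31 to 12.97 in WT arrays, and the neutrophil gene S100a8 read 12.96 to 14.89 in Sca1-MALT1 and 14.57 to 15.07 in WT arrays, against array medians of 6.40 to 6.48. Of the other B cell and neutrophil markers measured, only Pax5 and Itgam lay near or below the medians in most arrays. Pax5 read 5.48 to 5.98 in Sca1-MALT1 and 6.38 to 7.51 in WT arrays. The rest, Cd79a, Cd79b, Cd22, S100a9, Ltf, Camp, Ngp and Mmp8, lay above the medians in every array. Whether such signal came from other cells or from progenitors was not tested. Malt1 read 9.39 to 10.18 in Sca1-MALT1 and 9.02 to 9.75 in WT arrays, a difference of 0.49 (SE 0.22, adjusted p = 0.507 by limma). The labels do not say whether its probes match the transgene. Sca1 itself (Ly6a) was not analysed here. Sca1-MALT1 replicates 2 and 4 had Xist signals of 13.09 and 12.46, and the other 6 arrays, all WT arrays among them, 6.20 to 6.58. The groups were therefore not balanced for Xist. In bulk samples, fewer cells of a type and less RNA per cell cannot be told apart.

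None of the 9 genes passed the test between the genotypes, and 8 of 9 had a lower mean in Sca1-MALT1. The largest difference was that of Cd34, at -2.15 on the log2 scale, followed by Flt3 at -1.59. Slamf1 was the 1 member with a higher mean, by 0.78. The test was limma's, adjusted by Benjamini-Hochberg over all genes with a threshold of 0.05, and it called 16 of 18193 genes, 0.0879%. Adjusted p-values of the members lay between 0.377 and 0.903. Cd34 and Flt3 had an unadjusted p under 0.05, which makes 2 of 9, where 10.2% of all genes did. The genotypes overlapped in all 9 members, while 7.13% of all genes showed no overlap. The median difference was -0.55 over the members and 0.004 over all genes, of which 49.3% had a lower mean in Sca1-MALT1. Over the 12 probe sets none passed when adjusted over all 45037, of which 0.06% did. Of the 12, 3 probe sets had an unadjusted p under 0.05 (9.47% of all), those of Cd34 and Flt3 and the dimmest of Slamf1, and none was free of overlap (6.83% of all).

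**Figure D1:**
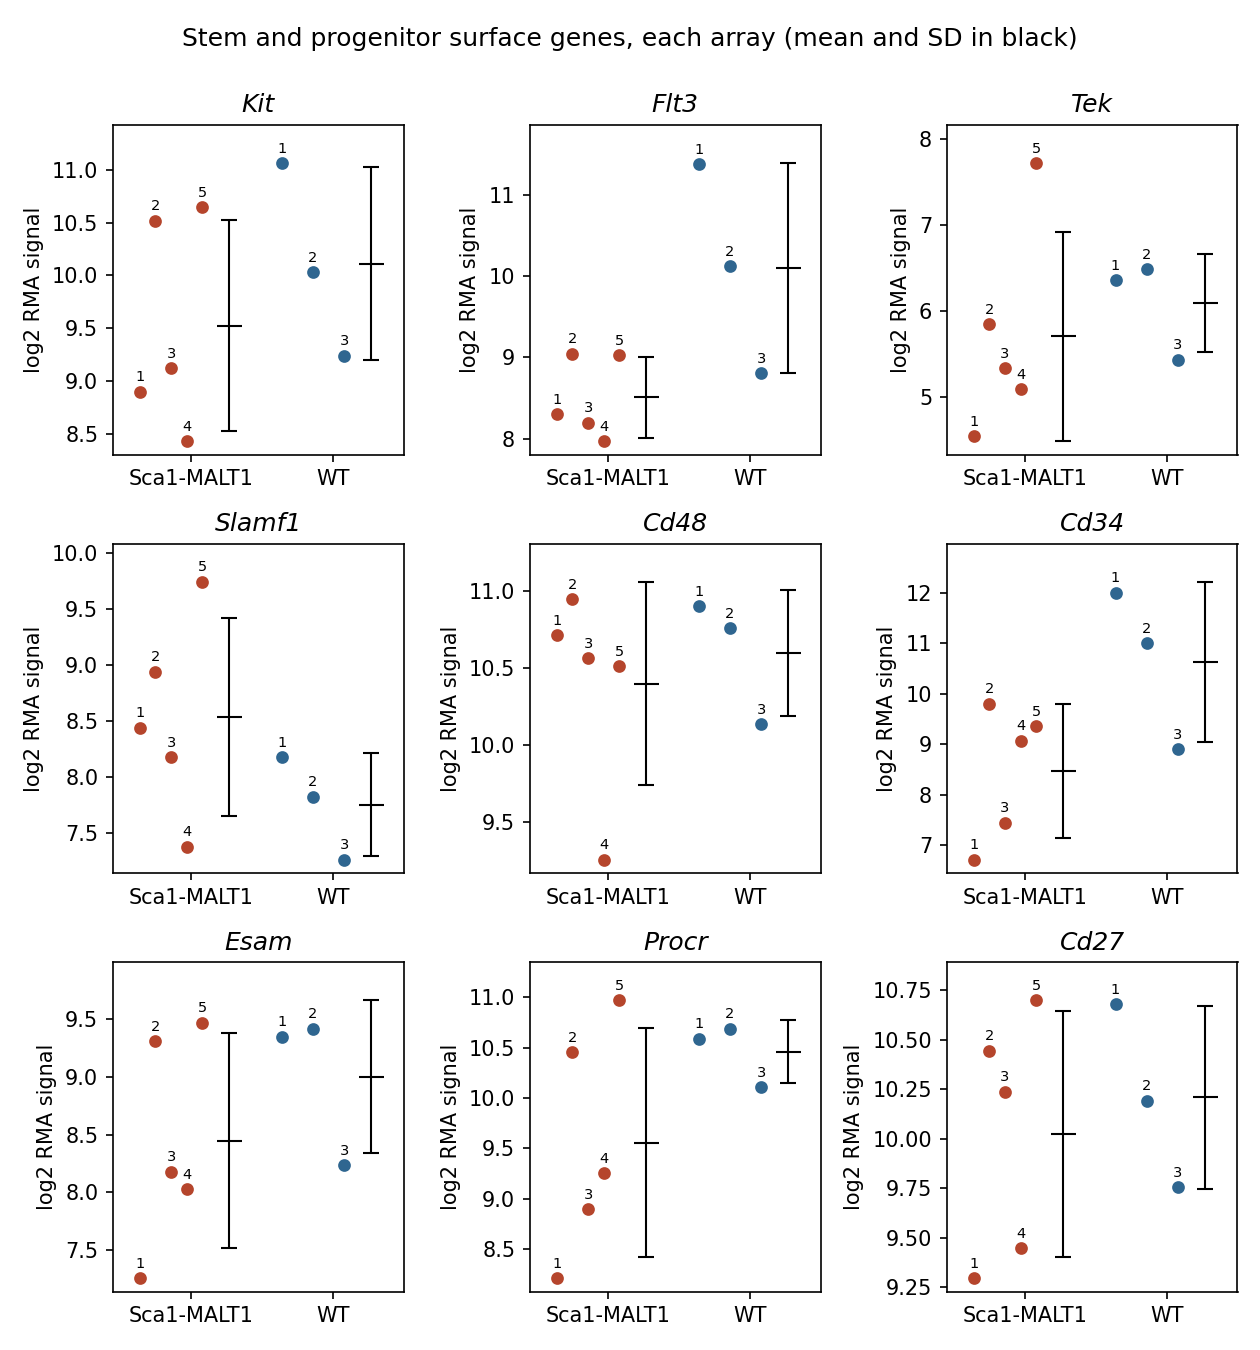
Log2 RMA signal (y axis, a different range in each panel) of the brightest probe set of each member in the 5 Sca1-MALT1 arrays (left, red) and 3 WT arrays (right, blue), numbered by replicate, with group mean and SD in black. Sca1-MALT1 and WT points overlap in every panel, and Sca1-MALT1 replicates 2 and 5 lie above replicates 3 and 4 in all panels but that of Cd48.

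Kit, Flt3 and Tek are receptor tyrosine kinases. Kit, the receptor for stem cell factor, read 8.90, 10.52, 9.12, 8.43 and 10.65 in Sca1-MALT1 replicates 1 to 5, against 11.06, 10.03 and 9.24 in WT replicates 1 to 3. Sca1-MALT1 replicates 2 and 5 lay within the WT range and the other 3 below it. The Kit difference was -0.59 (SE 0.61, 95% confidence interval -1.98 to 0.80, adjusted p = 0.793; exact permutation p = 0.429 over the 56 ways to split the arrays, two-sided). The dimmer Kit probe set read 5.24 to 6.05 in Sca1-MALT1 and 5.70 to 6.70 in WT arrays, close to or below the array medians, so its signal over background is unknown. Its difference was -0.56 (SE 0.26, adjusted p = 0.548 by limma over all probe sets).

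Flt3, the receptor for FLT3 ligand and a marker of lymphoid-primed progenitors, read 8.30, 9.05, 8.20, 7.97 and 9.02 in Sca1-MALT1, against 11.37, 10.12 and 8.80 in WT arrays. The 5 Sca1-MALT1 arrays lay close together, with an SD of 0.50, and 2 of them exceeded WT replicate 3 only. The SD was 1.29 in WT arrays. The Flt3 difference of -1.59 (SE 0.53, 95% confidence interval -2.80 to -0.38, adjusted p = 0.377; exact permutation p = 0.107) corresponds to a 3.01-fold higher mean signal in WT. Without WT replicate 1 it was -0.95.

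Tek, the angiopoietin receptor, was the dimmest member. It read 4.54, 5.85, 5.33, 5.09 and 7.72 in Sca1-MALT1, against 6.36, 6.49 and 5.43 in WT arrays. Only Sca1-MALT1 replicate 5 and WT replicate 2 exceeded every array median, so a low Tek value is not read as absence of the transcript. The Tek difference was -0.39 (SE 0.65, 95% confidence interval -1.89 to 1.11, adjusted p = 0.880; exact permutation p = 0.607). It was -0.096 without Sca1-MALT1 replicate 1 and -0.89 without Sca1-MALT1 replicate 5.

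The pair of SLAM family members differed in sign. Slamf1, a self-ligand receptor, read 8.44, 8.94, 8.17, 7.37 and 9.74 in Sca1-MALT1, against 8.17, 7.82 and 7.26 in WT arrays. Of the Sca1-MALT1 arrays, 4 lay above the highest WT array, replicate 3 by a margin under the rounding of these values, and replicate 4 lay among the WT arrays. The Slamf1 difference was 0.78 (SE 0.48, 95% confidence interval -0.32 to 1.88, adjusted p = 0.636; exact permutation p = 0.179). The dimmer Slamf1 probe sets, both with means below the array medians, had the same sign. The dimmest read 6.27, 6.17, 5.66, 5.11 and 6.50 in Sca1-MALT1, against 5.53, 5.07 and 5.10 in WT arrays, a difference of 0.71 (SE 0.31, unadjusted p = 0.04998, adjusted p = 0.528 by limma over all probe sets). The last differed by 0.33 (SE 0.25, adjusted p = 0.722 by limma over all probe sets).

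Cd48, which binds CD2 and CD244, read 10.71, 10.95, 10.56, 9.25 and 10.51 in Sca1-MALT1, against 10.90, 10.76 and 10.13 in WT arrays. Sca1-MALT1 replicate 4 lay below all WT arrays, and the other 4 Sca1-MALT1 arrays lay within or just above the WT range. The Cd48 difference was -0.20 (SE 0.37, 95% confidence interval -1.06 to 0.66, adjusted p = 0.896; exact permutation p = 0.821). Without replicate 4 it was 0.086.

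Cd34, a sialomucin that carries selectin ligands, had the widest spread of the members. It read 6.72, 9.80, 7.44, 9.07 and 9.36 in Sca1-MALT1, against 11.997, 10.998 and 8.90 in WT arrays. Sca1-MALT1 replicates 1 and 3 lay below all WT arrays, and the other 3 lay between WT replicates 2 and 3. The Cd34 difference of -2.15 (SE 0.88, 95% confidence interval -4.17 to -0.14, adjusted p = 0.458; exact permutation p = 0.143) corresponds to a 4.45-fold higher mean signal in WT. Leaving out each array in turn gave -3.02 to -1.47.

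Esam, an adhesion molecule of endothelial junctions, read 7.26, 9.31, 8.18, 8.02 and 9.47 in Sca1-MALT1, against 9.35, 9.42 and 8.23 in WT arrays. Procr, the receptor for protein C, read 8.21, 10.46, 8.90, 9.25 and 10.97 in Sca1-MALT1, against 10.59, 10.69 and 10.11 in WT arrays. In both genes Sca1-MALT1 replicates 1, 3 and 4 lay below all WT arrays while replicate 5 was the highest of all 8 arrays. The Esam difference was -0.55 (SE 0.53, 95% confidence interval -1.77 to 0.67, adjusted p = 0.778; exact permutation p = 0.321), and it was -0.25 without Sca1-MALT1 replicate 1 and -0.93 without WT replicate 3. That of Procr was -0.90 (SE 0.59, 95% confidence interval -2.25 to 0.44, adjusted p = 0.657; exact permutation p = 0.286), and it was -0.57 without Sca1-MALT1 replicate 1 and -1.26 without Sca1-MALT1 replicate 5. The Procr probe set carries the suffix that Affymetrix gives to sets whose probes match several transcripts.

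Cd27, a receptor of the TNF receptor family that binds CD70, read 9.30, 10.44, 10.24, 9.45 and 10.70 in Sca1-MALT1, against 10.68, 10.19 and 9.75 in WT arrays. Sca1-MALT1 replicates 1 and 4 lay below the WT range and replicate 5 just above it. The Cd27 difference was -0.18 (SE 0.36, 95% confidence interval -1.02 to 0.65, adjusted p = 0.903; exact permutation p = 0.679).

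**Figure D2:**
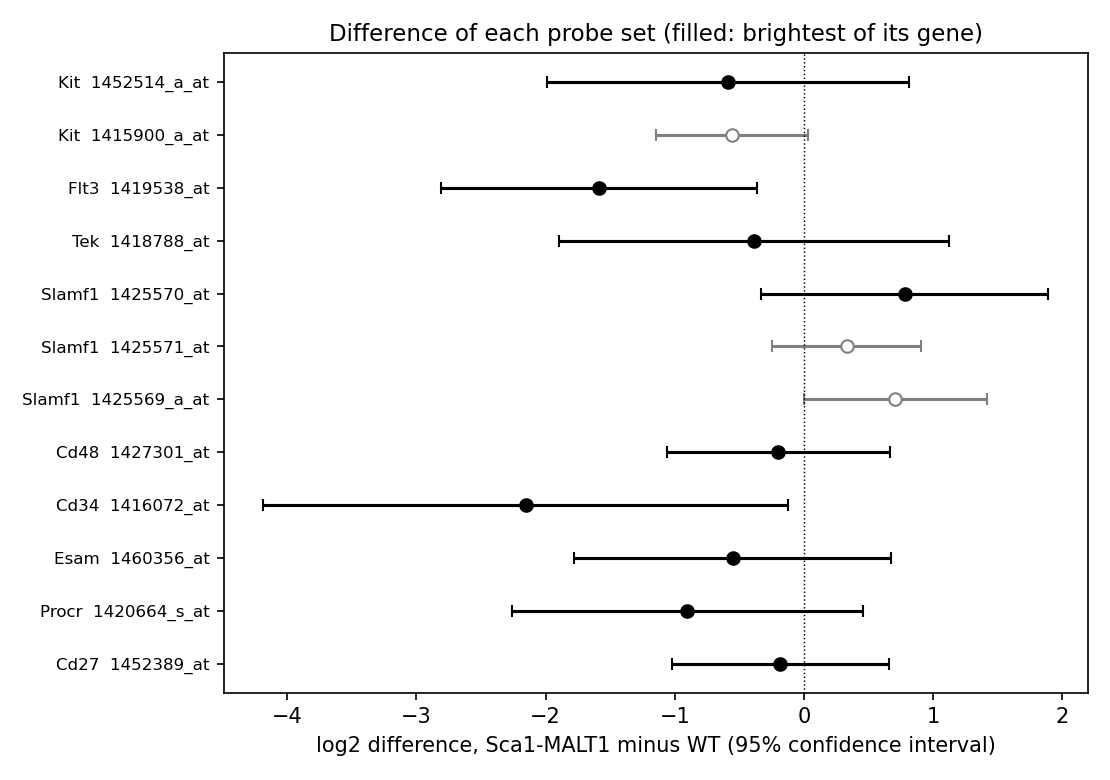
Log2 difference, Sca1-MALT1 minus WT, of each of the 12 probe sets (x axis) with its 95% confidence interval from the limma fit over all probe sets; filled points are the brightest probe set of a gene. The intervals of Flt3 and Cd34 lie below 0, that of the dimmest Slamf1 probe set lies barely above 0, and the other intervals include 0.

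All 9 members varied more within the genotypes than most genes did. The pooled SD within groups was 0.24 for the median gene, and it ranged from 0.57 for Cd27 and 0.59 for Cd48 to 1.05 for Tek and 1.42 for Cd34. Cd27 thus exceeded 88.7% of all genes and Cd34 exceeded 99.4%. Within the Sca1-MALT1 group, the signal of Tek spanned 3.18, that of Cd34 3.08 and that of Procr 2.75 on the log2 scale. The WT arrays spanned 0.58 in Procr and 1.06 in Tek, but 3.10 in Cd34.

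The spread followed the same arrays in most members. Sca1-MALT1 replicate 5 was the highest of its group in 6 members and replicate 2 in the other 3, Cd34, Flt3 and Cd48. Replicate 1 was the lowest in Cd34, Procr, Tek, Esam and Cd27, and replicate 4 was the lowest in Kit, Flt3, Slamf1 and Cd48. Among WT arrays, replicate 3 was the lowest in all 9 members. The mean over the 9 members was 9.48 and 9.79 in Sca1-MALT1 replicates 2 and 5 and 8.04 to 8.46 in the other 3, against 10.05, 9.61 and 8.65 in WT replicates 1 to 3. Sca1-MALT1 replicates 2 and 5 therefore lay within the WT range and the other 3 below it.

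**Figure D3:**
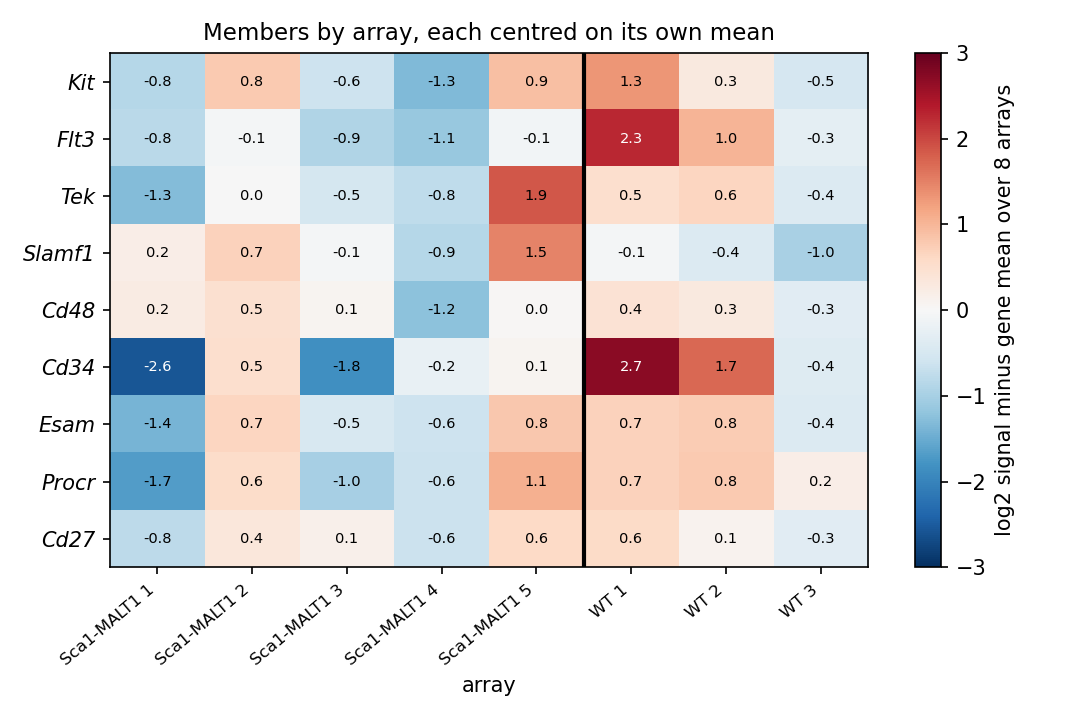
Log2 signal of each member (rows) in each array (columns, Sca1-MALT1 left of the black line and WT right of it), minus the mean of that gene over the 8 arrays; red is above and blue below the mean. Sca1-MALT1 replicates 2 and 5 and WT replicates 1 and 2 are mostly red, and Sca1-MALT1 replicates 1, 3 and 4 and WT replicate 3 are mostly blue.

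Likeness between genes was described by Pearson's r over the 8 arrays. The arrays differ in genotype and in the marker levels given below, and both can raise or lower r, as can normalization. Esam and Procr were the most alike pair of members, with r = 0.94, and Procr ranked 36 among 18192 genes in likeness to Esam. Cd27 had r = 0.90 with Kit and 0.89 with Esam. Slamf1 stood apart from Cd34 (r = -0.03) and Flt3 (r = 0.07). The genes named next were picked as the highest of 18192 r values over 8 arrays. Such picking alone can give a high r, so they are not read as partners. Over all genes, the 2 most like Kit were Ctla2b (r = 0.99) and Dido1 (r = 0.99), and those most like Flt3 were Arl3 and Hnf4a (r = 0.99 each). Slamf1 was most like Sh2d4a (r = 0.97) and Tfam (r = 0.96). Esam was most like Dmd, the dystrophin gene, and Gucy1a1, a subunit of soluble guanylate cyclase (r = 0.98 each). The other members were most like Larp7 and Fkbp1a (Cd34, r = 0.99 each), Brix1 and Asah2 (Cd48, r = 0.98 and 0.97), Cpsf3 and Tbxas1 (Procr, r = 0.98 and 0.97), Mylk and Zfp664 (Tek, r = 0.98 each) and Zfp783 and Llgl1 (Cd27, r = 0.99 and 0.97).

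Differences between 2 members within an array do not depend on the overall level of that array. Probe sets of different genes have no common scale, so only the change of such a difference between the genotypes is read. These comparisons were added after the values had been seen and are given with no test. In 9 of the 36 pairs of members the genotypes did not overlap, and 7 of these 9 involved Slamf1. The share over all pairs of genes was not computed. These 7 pairs use the same Slamf1 values against members that partly rose and fell together, so they are not 7 separate observations. Their direction was set beforehand, since Slamf1 alone of the members had a higher mean in Sca1-MALT1. Slamf1 minus Kit was -0.46, -1.58, -0.95, -1.05 and -0.91 in Sca1-MALT1, against -2.89, -2.21 and -1.98 in WT arrays. Slamf1 was thus 1.37 log2 units higher relative to Kit in Sca1-MALT1, with every Sca1-MALT1 array above every WT array.

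Relative to Flt3, Slamf1 was 2.37 higher, at 0.14, -0.11, -0.03, -0.60 and 0.71 in Sca1-MALT1, against -3.20, -2.30 and -1.54 in WT arrays. Relative to Procr, Esam and Tek, the other stem cell markers, Slamf1 was 1.68, 1.33 and 1.17 higher, again with no overlap. Relative to Cd48 it was 0.98 higher, at -2.39 to -0.77 in Sca1-MALT1 and -2.94 to -2.73 in WT arrays. Relative to Cd27 it was 0.96 higher without overlap. Relative to Cd34 it was 2.93 higher, but Sca1-MALT1 replicate 4 overlapped WT replicate 3. Over all genes, Slamf1 minus another gene was higher in every Sca1-MALT1 array in 3.95% of 18192 cases. With the dimmer Slamf1 probe sets, the genotypes stayed apart against Flt3 and the dimmer Kit probe set and overlapped against the brighter Kit probe set.

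The remaining pairs without overlap both involved Flt3. Kit minus Flt3 was 0.60, 1.47, 0.92, 0.46 and 1.62 in Sca1-MALT1, against -0.31, -0.09 and 0.44 in WT arrays. Flt3 minus Cd27 was -2.04 to -0.999 in Sca1-MALT1 and -0.95 to 0.70 in WT arrays. Over all genes, 15.2% of the differences between Flt3 and another gene showed no overlap, so such separation was not rare for Flt3.

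**Figure D4:**
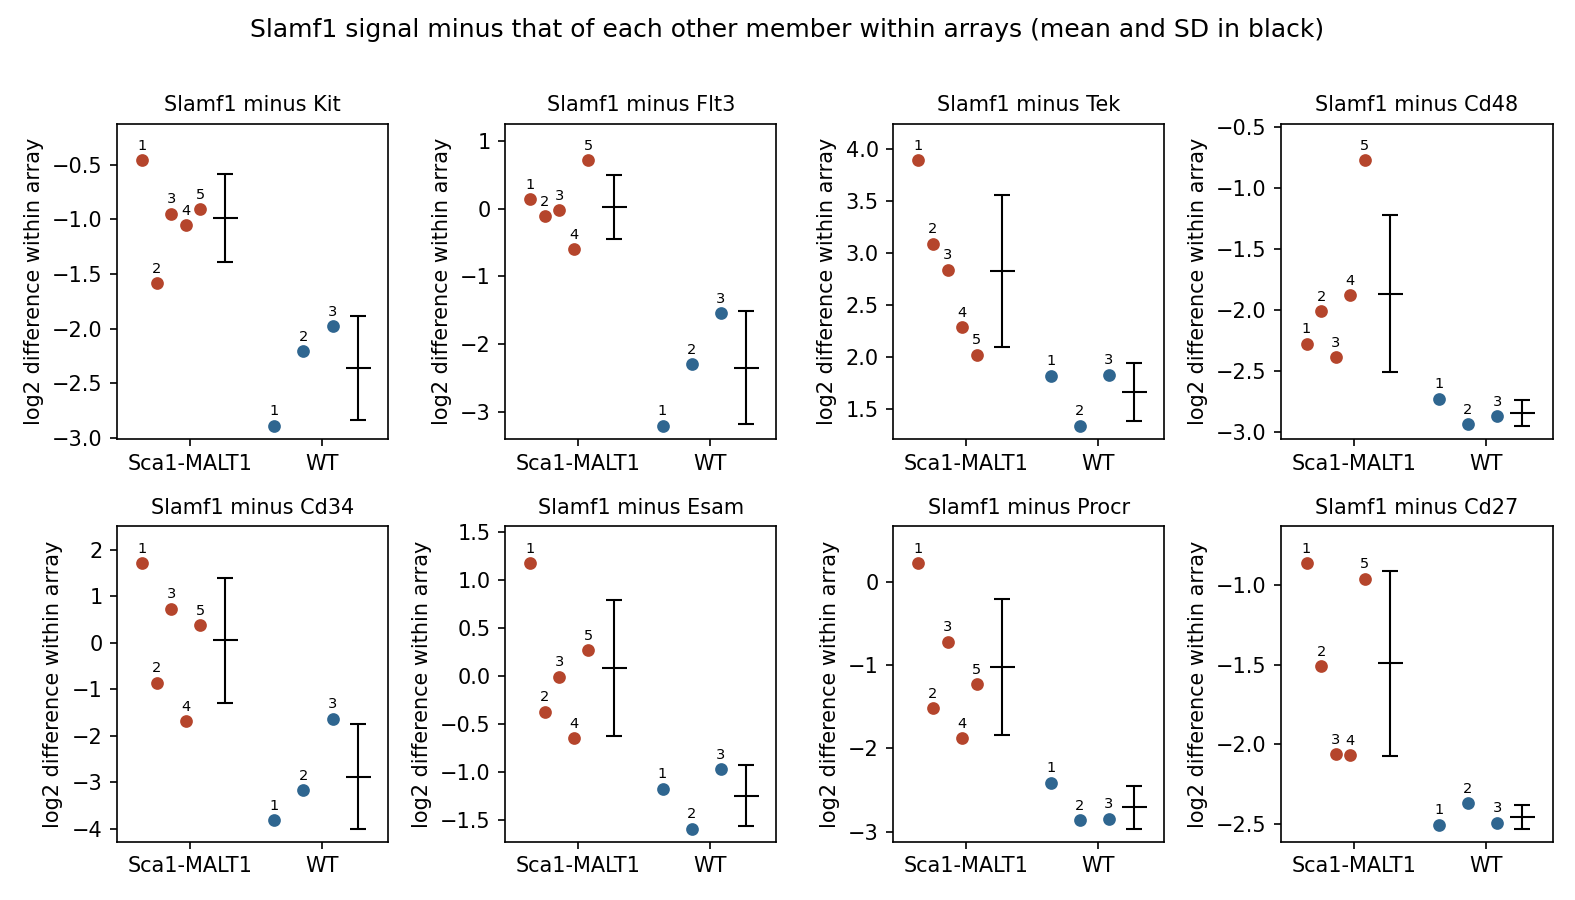
Slamf1 log2 signal minus that of each other member in the same array (y axis, a different range in each panel), in the 5 Sca1-MALT1 arrays (left, red) and 3 WT arrays (right, blue), numbered by replicate, with group mean and SD in black. In 7 of the 8 panels every Sca1-MALT1 array lies above every WT array, the exception being Cd34.

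The promoters of the 4 genes that these within-array comparisons turn on are shown so that the neighbours Slamf1 and Cd48 can be set beside the kinase genes Kit and Flt3. Each sequence is the 250 bases before the RefSeq start in build GRCm38.p6, read 5′ to 3′ on the strand of the gene. They are chr1:171766882-171767131 on the plus strand for Slamf1, chr1:171681742-171681991 on the plus strand for Cd48, chr5:75574737-75574986 on the plus strand for Kit (the first of 2 listed starts) and chr5:147400490-147400739 on the minus strand for Flt3. Capitals mark matches to a GATA motif (GATAA), a RUNX motif (TGTGGT), an ETS motif (ACCGGAA or ACAGGAA) or a kappa B motif (GGGA and CC with any 4 bases between them), on either strand.
Slamf1: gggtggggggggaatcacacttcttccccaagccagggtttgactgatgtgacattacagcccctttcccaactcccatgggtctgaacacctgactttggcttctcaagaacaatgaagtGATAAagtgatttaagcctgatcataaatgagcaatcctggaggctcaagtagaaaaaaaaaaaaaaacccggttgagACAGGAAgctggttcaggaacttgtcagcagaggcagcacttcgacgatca
Cd48: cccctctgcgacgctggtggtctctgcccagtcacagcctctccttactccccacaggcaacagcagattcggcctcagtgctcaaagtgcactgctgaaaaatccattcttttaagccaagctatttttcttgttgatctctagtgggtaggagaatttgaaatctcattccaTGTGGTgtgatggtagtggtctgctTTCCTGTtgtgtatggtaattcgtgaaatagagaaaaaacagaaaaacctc
Kit: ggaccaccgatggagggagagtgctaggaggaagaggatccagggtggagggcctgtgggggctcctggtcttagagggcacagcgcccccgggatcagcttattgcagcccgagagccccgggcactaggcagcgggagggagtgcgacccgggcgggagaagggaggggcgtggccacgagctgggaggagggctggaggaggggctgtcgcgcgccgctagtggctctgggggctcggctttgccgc
Flt3: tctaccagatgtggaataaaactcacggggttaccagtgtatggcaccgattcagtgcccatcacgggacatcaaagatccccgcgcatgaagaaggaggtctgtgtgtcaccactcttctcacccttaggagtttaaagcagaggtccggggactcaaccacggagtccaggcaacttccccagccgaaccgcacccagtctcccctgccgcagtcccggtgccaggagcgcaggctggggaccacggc

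In this window Slamf1 holds a GATA match, which begins 129 bases before the start, and an ETS match, which begins 51 bases before it. Cd48 holds an ETS match on the other strand, which also begins 51 bases before the start, and a RUNX match. Kit and Flt3 hold no match to the 4 motifs. The sequences of 8 members were found in the RefSeq table. Of these 8, 2 hold the ETS motif, where 9.69% of 27025 promoters hold either spelling. GATA and RUNX motifs are each in 1 of the 8, where 23.0% and 14.2% of all promoters hold them. The kappa B motif, to which NF-kB proteins bind, is also in 1 of the 8, Procr, where 17.3% of all promoters hold it. A match describes the letters and is no evidence of binding. The GC content of these bases was 47.2% for Slamf1, 46.0% for Cd48, 70.8% for Kit and 59.2% for Flt3, against a median of 52% over all promoters.

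Slamf1 and Cd48 lie in a cluster of SLAM family genes on chromosome 1, in the order Cd244a, Ly9, Slamf7, Cd48, Slamf1, Cd84 and Slamf6. Of the 7 genes, 5 had a higher mean in Sca1-MALT1 and none passed, with adjusted p-values of 0.372 to 0.896 by limma. The differences in this order were -0.68, 0.47, 1.05, -0.20, 0.78, 0.38 and 0.64, and the probe sets of Cd84 and Slamf6 disagreed in sign. Slamf7, which plasma cells and NK cells carry, read 10.38, 9.57, 9.21, 9.10 and 9.08 in Sca1-MALT1, against 8.04, 8.23 and 8.98 in WT arrays, with no overlap.

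Ligands and binding partners of the members did not pass in any of 12 measured genes, 7 of them higher and 5 lower, with a median difference of 0.10. Kitl, the gene of stem cell factor, had the lowest p. It read 7.77, 6.51, 7.77, 7.0004 and 8.12 in Sca1-MALT1, against 6.76, 4.71 and 5.43 in WT arrays. Its difference was 1.80 (SE 0.51, adjusted p = 0.316). The sign was shared by 3 of 4 probe sets, and replicate 2 overlapped the WT range. Angpt1, the main TEK ligand, read 7.46, 10.39, 8.76, 8.14 and 11.33 in Sca1-MALT1, against 10.96, 10.38 and 9.71 in WT arrays, the same order of Sca1-MALT1 arrays as for Tek. Its difference was -1.13 (SE 0.84, adjusted p = 0.704). Thbd, thrombomodulin, which acts with PROCR on protein C, differed by -0.47 (SE 0.33, adjusted p = 0.675).

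None of 21 structural relatives of the members passed. Their median difference was 0.25, with 13 genes higher and 8 lower. Pdgfra, a relative of KIT and FLT3, differed by 1.37 (SE 0.41, adjusted p = 0.339), but its other two probe sets had the opposite sign. Cd40, which belongs to the same receptor family as CD27, differed by -0.91 (SE 0.34, adjusted p = 0.409). That sign was shared by 2 of 3 Cd40 probe sets. None of 21 measured signalling partners passed either. Their median difference was 0.04, with 11 genes higher and 10 lower. Inpp5d (SHIP1), a phosphatase that limits signalling from KIT, read 11.75 to 11.88 in Sca1-MALT1 and 12.002 to 12.24 in WT arrays, a difference of -0.28 (SE 0.10, adjusted p = 0.388). Siva1, which binds the tail of CD27, differed by -0.45 (SE 0.18, adjusted p = 0.458). Sh2b3 (LNK), an adaptor that restrains KIT, differed by -0.25 (SE 0.14, adjusted p = 0.582), with 1 of its 2 probe sets of the opposite sign.

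Other stem and progenitor receptors, 22 measured, had a median of -0.22, with 9 higher, 13 lower and none past the threshold. Cd93, a receptor of early progenitors, myeloid and endothelial cells, read 10.14, 10.12, 9.69, 9.72 and 9.34 in Sca1-MALT1, against 11.71, 10.75 and 10.51 in WT arrays. The Cd93 difference was -1.18 (SE 0.29, adjusted p = 0.271), and 1 of its 5 probe sets had the opposite sign. Eng, a TGF-beta co-receptor, differed by -0.55 (SE 0.15, adjusted p = 0.309). Thy1, which is low on stem cells and high on T cells, read 12.72, 12.92, 12.46, 10.99 and 12.48 in Sca1-MALT1, against 10.32, 11.72 and 10.60 in WT arrays. Its difference was 1.43 (SE 0.48, adjusted p = 0.377). Stem cell transcription factors had a median of -0.52 over 16 genes, with 5 higher, 11 lower and none past the threshold. Those with the lowest p were Hlf at -1.33 (SE 0.45, adjusted p = 0.382), Gfi1b at 0.91 (SE 0.32, adjusted p = 0.386) and Hoxa9 at -1.82 (SE 0.78, adjusted p = 0.481). The mean level of the 16 was 10.53 and 10.63 in Sca1-MALT1 replicates 2 and 5 and 9.02 to 9.70 in the other 3, against 9.99 to 10.73 in WT arrays, the same division of the Sca1-MALT1 arrays as in the members.

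Markers of other cells were set beside the same arrays. The mean level of 7 plasma cell markers was 12.62, 10.72, 11.37, 11.64 and 11.90 in Sca1-MALT1 replicates 1 to 5, against 9.14 to 9.64 in WT arrays, with all 7 genes higher and Jchain alone past the threshold. Replicate 1, the highest for these markers, was the lowest Sca1-MALT1 array in 5 members, and replicate 2, the lowest, was highest or second in all 9. Replicate 5, the second highest for these markers, was the highest in 6 members, so the arrays did not fall in 1 order.

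The mean of 7 neutrophil markers was 12.08, 11.60, 10.65, 13.53 and 10.77 in Sca1-MALT1 replicates 1 to 5, against 12.10, 12.26 and 13.71 in WT arrays, with all 7 lower in Sca1-MALT1 and none past the threshold. Sca1-MALT1 replicate 4 and WT replicate 3, the highest of their groups, were the lowest in 4 and in all 9 members. Sca1-MALT1 replicate 3 had the lowest neutrophil mean of all arrays and was also 1 of the 3 Sca1-MALT1 arrays with a low mean over the members. The mean of 6 erythroid markers was 10.58 to 11.78 in Sca1-MALT1 and 10.11 to 10.48 in WT arrays, without overlap, with 5 higher, 1 lower and none past the threshold. Car1, which encodes a carbonic anhydrase, had the largest of these differences, 2.45 (SE 0.45, adjusted p = 0.134 by limma). The mean of 5 B cell markers, cells that carry CD48, was 8.45 to 10.19 in Sca1-MALT1 and 10.01 to 10.45 in WT arrays, with all 5 lower, a median difference of -1.04 and none past the threshold.

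The 12 endothelial markers bear on Tek, Esam, Procr and Cd34, which endothelial cells also express. Their mean was 6.33 to 7.74 in Sca1-MALT1 and 6.95 to 7.84 in WT arrays, with 9 lower, 3 higher and none past the threshold. All 5 with an unadjusted p under 0.05 by limma were lower in Sca1-MALT1. The differences were -1.19 for Emcn, -1.69 for Plvap, -0.89 for Kdr, -1.85 for Egfl7 and -1.08 for Cdh5. Of the 2 Cdh5 probe sets, only 1 had this sign. Replicate 5 had the highest mean of the Sca1-MALT1 arrays. In it Emcn, Plvap, Kdr and Cdh5 read 5.66, 6.62, 7.64 and 6.01, below all WT arrays. Vwf, Cldn5, Tie1 and Pecam1 read 10.65, 11.62, 7.94 and 6.57 in it, above all WT arrays.

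Means of 6 T cell markers ran from 8.14 to 9.41 in Sca1-MALT1 and from 8.60 to 8.70 in WT arrays, and those of 4 NK cell markers from 8.30 to 10.53 in Sca1-MALT1 and from 9.09 to 9.25 in WT arrays. Means of 6 monocyte and macrophage markers ran from 9.73 to 11.43 in Sca1-MALT1 and from 10.17 to 11.49 in WT arrays, and those of 4 megakaryocyte markers from 7.27 to 8.96 in Sca1-MALT1 and from 8.30 to 8.42 in WT arrays. Those of 6 mast cell and basophil markers ran from 5.76 to 8.77 in Sca1-MALT1 and from 7.09 to 7.75 in WT arrays. Of these cells, mast cells also carry KIT. No gene of these lists passed. No marker could be called absent, since RMA gives no detection call. The part of these cells in the members' values was not tested.

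**Figure D5:**
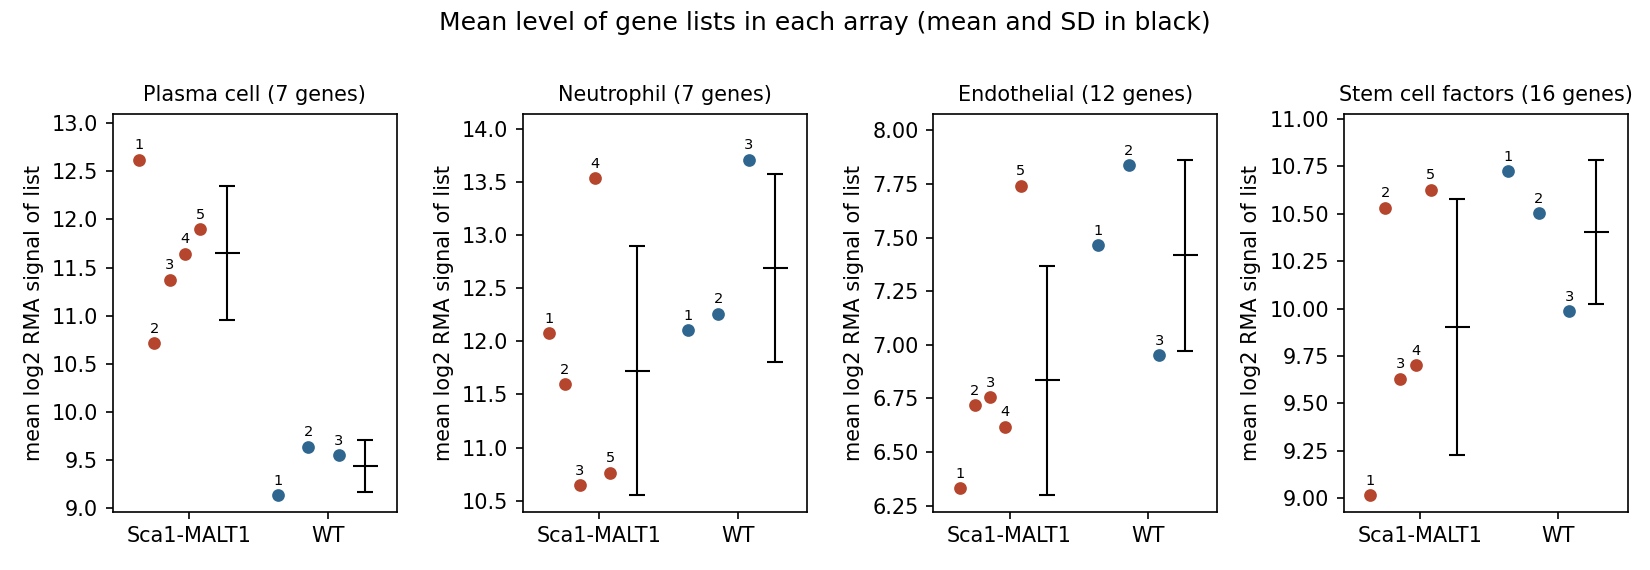
Mean log2 RMA signal of 4 gene lists (y axis, a different range in each panel) in the 5 Sca1-MALT1 arrays (left, red) and 3 WT arrays (right, blue), numbered by replicate, with group mean and SD in black. The plasma cell means of the genotypes do not overlap, Sca1-MALT1 replicate 4 and WT replicate 3 have the highest neutrophil means, and Sca1-MALT1 replicates 2 and 5 have the highest stem cell factor means of their group.

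Of the arrays with a high Xist signal, Sca1-MALT1 replicate 2 was highest or second of its group in all 9 members, and replicate 4 was the lowest of its group in 4. With a term for Xist, the differences were -2.79 for Cd34, -1.59 for Flt3 and 1.03 for Slamf1, and none of the 9 genes passed. No WT array was Xist-high, so these differences are the same as those of the Xist-low arrays alone. Among the Xist-low arrays alone, Slamf1 was higher relative to all 8 other members without overlap. This followed from the values above, since Sca1-MALT1 replicate 4, which alone overlapped against Cd34, was left out. The share over all genes was not computed for these arrays.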

How the data were processed

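Gene expression was measured on 8 arrays, 5 Sca1-MALT1 and 3 WT. The deposited table holds log2 signals that the authors made with RMA, per the submitters' processing notes; no version is given in the sources used here. Values ran from 2.73 to 15.41 and were used as they stood, so the number of arrays limits the precision. Control probe sets (64 of 45101) were left out. Symbols came from the platform annotation, updated through RefSeq gene identifiers (34945 probe sets had 1 symbol, 932 several and 9160 were unlisted). The brightest probe set stood for a gene, and all probe sets were also fitted together. Genotype was the only term in limma 3.58.1 (R 4.3.3), which was tested on simulated data. The members and lists were chosen with earlier results of these data known. Named beside the members were the 3 genes with the lowest p of each list that is no marker list, the 2 genes most like each member and Malt1; the SLAM cluster and single marker genes were named after their values were seen. Of the lists, 3 of 25 receptors, 1 of 13 partners and 3 of 24 signalling genes were not measured through a single symbol. Correlations of deviations between WT and Sca1-MALT1 arrays with the same replicate number were -0.22, -0.04 and 0.01. These 3 values cannot exclude a pairing, but the labels state none, so none was used in the main fit. Alternatives were another normalization, a filter on dim genes, averaging the probe sets of each gene, other variance models, array weights, a replicate block, an Xist term, another threshold and each array left out; the Xist-low arrays alone and the comparisons within arrays were added after the values had been seen.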

Additional observations from a re-analysis of the deposited data

Results flagged for a closer look

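Cd48 in Sca1-MALT1 replicate 4 read 9.25, far from the other 4 arrays of its group at 10.51 to 10.95. The gap of 0.741 of the range of the group exceeded the critical value of Dixon's test for 5 values. None of the other 11 probe sets did so, and chance gives such a gap in about 1 of 20 groups.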

How the results depend on the processing

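No member passed under any alternative run, with adjusted p-values by limma of at least 0.223, and 149 of 152 alternative differences kept their direction. The exceptions were Cd48 at 0.14 with the replicate block and at 0.086 without Sca1-MALT1 replicate 4 (range -0.43 to 0.086 over the arrays left out), and Cd27 at 0.051 without WT replicate 1 (range -0.41 to 0.051). The cause was not tested. The count of 149 includes differences that could not change, since the filter on dim genes and the variance models leave each difference as it was. Averaging probe sets does the same for members with 1 probe set, and the Xist term repeats the differences of the Xist-low arrays alone. The replicate block changed no other call among the members. Leaving out each array in turn gave -1.02 to -0.11 for Kit, -2.24 to -0.95 for Flt3 and 0.48 to 1.07 for Slamf1. The number of genes past the threshold, 16, became 38 at a threshold of 0.1, 28 with array weights, 0 with the replicate block, 29 with the Xist term, 59 in the Xist-low arrays alone and 8 to 38 with 1 array left out. Tek was removed by the filter on dim genes. The number of members against which Slamf1 was higher without overlap, 7, was 6 with probe sets averaged per gene and 7 with another normalization. It was 7 or 8 with arrays left out, which can keep or raise this count but cannot lower it. With 3 WT arrays, intervals span more than 1 log2 unit.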
